A study of Mus musculus with 15 samples.

Results

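Aminoacyl-tRNA synthetases join each amino acid to its tRNA, the step that fixes how the genetic code is read. Animal cells keep a cytosolic set and a nuclear-encoded mitochondrial set, the second of which charges tRNAs for the few inner-membrane proteins made inside mitochondria. Many cytosolic synthetase genes are known targets of ATF4, the transcription factor of the integrated stress response, which mitochondrial damage can switch on.

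The genes described here are the 37 of 22507 in the deposited table whose symbols follow the synthetase pattern, a single capital letter with "ars" and an optional 1 or 2, together with Farsa, Farsb and Eprs. Symbols ending in 2 made a mitochondrial set of 17 genes and the rest a cytosolic set of 20 genes. The names match known location except that Gars and Kars each encode a cytosolic and a mitochondrial enzyme. No mitochondrial glutamine enzyme is in the set. Tarsl2 and Aarsd1 were not matched by the pattern and are counted with the accessory genes. All 37 genes passed the filter on low counts, and 13074 genes did so in all.

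The cells were N2a, a mouse neuroblastoma line. Each of 5 groups received an siRNA at 50 nM together with a plasmid and was taken on day 3, in 3 libraries per group. V465F cells received siOPA1 and a plasmid for OPA1-V465F, V560F cells siOPA1 and a plasmid for OPA1-V560F, wild-type OPA1 cells siOPA1 and an OPA1 plasmid, knockdown cells siOPA1 and the Control plasmid, and control cells siControl and the Control plasmid. OPA1 is a dynamin-like GTPase that fuses the inner mitochondrial membrane and is mutated in dominant optic atrophy. The library names of the wild-type OPA1, knockdown and control samples carry the letters Gwl and those of both mutant groups do not. The labels do not explain these letters, so whether the mutant groups differ from the others in more than the OPA1 insert cannot be told from them. The labels do not say that replicates were separate cultures, so a p-value here weighs only library-to-library spread, possibly technical. The share of cells that took up the constructs is not given in the sources used here.

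Opa1 itself had 33.6, 34.8 and 33.4 CPM (counts scaled to library size by the TMM method) in V465F libraries, 35.8, 27.3 and 33 in V560F, 29.5, 33.9 and 30.7 in wild-type OPA1, 33.9, 38.1 and 38.5 in knockdown, and 90.2, 98.2 and 99.2 in control libraries. All 12 siOPA1 libraries lay below all 3 controls, and the knockdown-against-control log2 fold change was -1.38 (SE 0.0834, edgeR adjusted p = 8.53e-10). The counted Opa1 gene was no higher with an OPA1 plasmid than without (wild-type OPA1 against knockdown, log2 fold change -0.23, SE 0.0855, edgeR adjusted p = 0.522), so these counts do not check the plasmids. The species of the inserts is not given in the sources used here. Of 17 neuroblastoma and neuronal marker genes, 13 averaged at least 1 FPKM (fragments per kilobase of gene, scaled to library total), led by Chgb, Stmn2 and Tubb3, while Nefl and Nefm were below 0.1 FPKM. No gene of the fibroblast, immune, epithelial or glial marker lists reached 1 FPKM. Library totals were 20070123 to 27809960 counts, of which synthetase genes took 0.58 to 0.631%.

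Per transcript length, the mitochondrial set was expressed far below the cytosolic set. Over the 15 libraries the median gene had 2.16 FPKM in the mitochondrial set and 47.8 FPKM in the cytosolic set. Among mitochondrial genes Lars2, the leucine enzyme, stood at 82.6 FPKM, followed by Yars2 (tyrosine) at 11.6 FPKM, while 10 of the 17 were below 3 FPKM and 6 were below 1 FPKM. Pars2, the proline enzyme, was the lowest at 0.168 FPKM, a level of 0 to 32 reads per library. Among cytosolic genes Gars (glycine) led at 354.9 FPKM, then Kars (lysine) at 231.4, Sars (serine) at 209.5, Nars (asparagine) at 153.8 and Eprs (glutamate and proline) at 108.7 FPKM, and Vars (valine) was the lowest at 12.1 FPKM. The remaining cytosolic genes had between 13.9 FPKM (Farsb, a phenylalanine enzyme subunit) and 84.3 FPKM (Qars, glutamine).

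Lars2 made up 65.7 to 66.8% of the summed mitochondrial FPKM in V465F libraries, 65.7 to 72.2% in V560F, 59.1 to 66% in wild-type OPA1, 62.1 to 63.8% in knockdown and 55.7 to 58.3% in control libraries. Sums over the set are therefore given without it. Its GENCODE M21 transcripts share no run of 25 bases with the mitochondrial rRNAs or with 3 loci annotated over nuclear rRNA sequence, and the longest exact match was 14 bases. The authors counted Lars2 over 4438 bases, against 3894 bases in the longest of those transcripts, so part of the counted sequence was not covered by that comparison.

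The sets moved apart across the 5 groups when each gene was set against its mean in control libraries on the log2(CPM + 0.1) scale. The mitochondrial median minus the cytosolic median was -0.78 ± 0.0732 in V465F libraries, -0.90 ± 0.0656 in V560F, -0.53 ± 0.149 in wild-type OPA1, -0.43 ± 0.0714 in knockdown and 0.00 ± 0.0567 in control libraries (SD, n = 3 each). All 12 siOPA1 libraries, at -0.97 to -0.35, lay below all 3 controls, at -0.04 to 0.07. The 6 mutant libraries, at -0.97 to -0.70, lay below the 3 wild-type OPA1 libraries, at -0.69 to -0.39, by a margin smaller than the spread among the wild-type OPA1 libraries. All tested genes, cut by mean FPKM into low, middle and high classes, also moved apart. In knockdown against control the median log2 fold change was -0.30 in the low and 0.17 in the high class. In V560F against wild-type OPA1 it was -0.27 and 0.21, and in V465F against wild-type OPA1 -0.20 and 0.14. All 20 cytosolic genes lay in the high class, and 9 mitochondrial genes in the low and 6 in the middle class. Whether the sets differ beyond this was not tested. Sums were taken on the FPKM scale, which has no TMM factor. Without Lars2, the summed mitochondrial level was 43.3 ± 1.65 FPKM in V465F libraries, 39.8 ± 1.01 in V560F, 47.7 ± 1.93 in wild-type OPA1, 48.7 ± 1.56 in knockdown and 59.9 ± 3.64 in control libraries. On that scale the summed cytosolic level differed less in proportion, with 1747.9 ± 16.2 FPKM in V465F libraries, 1679.1 ± 30.9 in V560F, 1708.8 ± 38.6 in wild-type OPA1, 1703.2 ± 39.1 in knockdown and 1601.7 ± 49.7 in control libraries. These proportions depend on the scale. Relative to control, cytosolic medians on the CPM scale were 0.29 in V465F, 0.29 in V560F, 0.19 in wild-type OPA1 and 0.13 in knockdown libraries. The mitochondrial medians were -0.49, -0.61, -0.34 and -0.30 in the same order. Gars averaged 989.5 CPM in V560F and 648.6 CPM in control libraries, beside 357.7 and 314.2 FPKM. In bulk RNA, fewer expressing cells and less RNA per cell cannot be told apart.

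**Figure D1:**
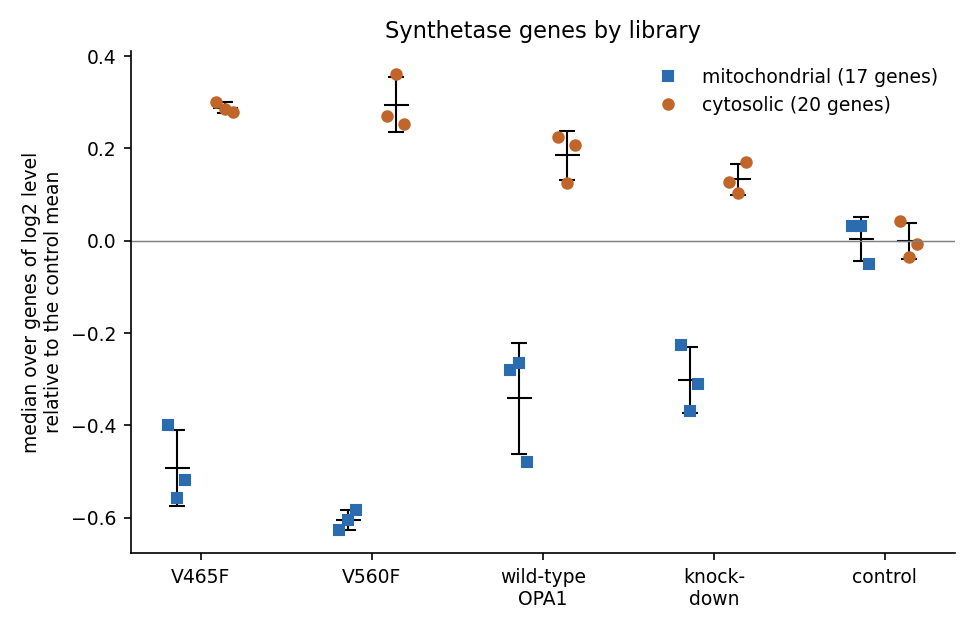
Median over the mitochondrial (squares, 17 genes) and cytosolic (circles, 20 genes) synthetase genes of the log2 level relative to the control mean, by group, with 1 point per library and bars for mean ± SD (n = 3). The mitochondrial medians of the mutant libraries lie at -0.63 to -0.40, those of wild-type OPA1 and knockdown libraries at -0.48 to -0.23, and those of control libraries at -0.05 to 0.03.

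The promoters of several cytosolic genes carry a match to the C/EBP-ATF response element, the site that ATF4 binds with its partners. RefSeq windows on build GRCm38.p6, which cover 250 bases before to 50 bases after the start site, were matched for 27 of the 37 genes, 14 mitochondrial and 13 cytosolic. The letters TGATGNAA, read on both strands, were found for 0 of 14 mitochondrial genes and 5 of 13 cytosolic genes (Aars, Gars, Iars, Tars and Yars), beside 4.51% of all 27025 genes with a window. The E-box CACGTG was found for 1 mitochondrial gene (Ears2) and 4 cytosolic genes (Aars, Farsb, Iars and Tars), beside 8.09% of all genes with a window. A match of each of the 5 genes is shown in capitals (Aars has another, after its start site), 5′ to 3′ on the strand of the gene, together with the last 100 bases before the start sites of Kars and Qars, whose full windows of 300 bases hold no match and whose genes had the largest rises among the cytosolic genes in V560F libraries. A match is a description of letters and not a bound site.
Aars (chr8:111033692-111033791, plus strand): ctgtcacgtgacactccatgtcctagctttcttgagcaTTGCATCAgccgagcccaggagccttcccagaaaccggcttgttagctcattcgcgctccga
Gars (chr6:55037901-55038000, plus strand): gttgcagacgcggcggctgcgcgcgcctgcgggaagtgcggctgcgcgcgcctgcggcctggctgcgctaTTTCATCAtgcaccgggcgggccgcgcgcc
Tars (chr15:11399659-11399758, minus strand): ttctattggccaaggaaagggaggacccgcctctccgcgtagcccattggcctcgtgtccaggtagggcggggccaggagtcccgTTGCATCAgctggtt
Iars (chr13:49682130-49682159, plus strand): gtcagtaTTGCATCAcctccagacgcggaa
Yars (chr4:129189903-129189932, plus strand): agcTGATGCAAcccgacgggactagcgtga
Kars (chr8:112011355-112011454, minus strand): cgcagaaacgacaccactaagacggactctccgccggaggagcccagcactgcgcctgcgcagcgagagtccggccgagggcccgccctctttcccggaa
Qars (chr9:108507905-108508004, plus strand): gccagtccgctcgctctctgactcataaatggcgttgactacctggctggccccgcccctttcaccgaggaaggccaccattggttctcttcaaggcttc

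Knockdown against control asks what siOPA1 does, which left Opa1 at a mean of 36.8 CPM, against 95.9 CPM in control libraries. Effects of siOPA1 other than on Opa1 cannot be told apart in this comparison. The mitochondrial and cytosolic sets split by direction. Of the mitochondrial genes 0 rose and 9 fell (among them Pars2, Vars2, Rars2, Nars2, Ears2, Aars2, Iars2 and Hars2), with a median log2 fold change of -0.33 over the 17. Of the cytosolic genes 9 rose (Kars, Gars, Eprs, Sars, Qars, Nars, Rars, Vars and Farsb) and 0 fell, with a median of 0.12 over the 20, which turned to -0.02 on the deposited FPKM scale. Over all 13074 genes tested, 35.9% were called at an edgeR adjusted p under 0.05, 19.9% higher and 16% lower, and the median was 0.01.

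Pars2, which charges the mitochondrial proline tRNA, had 0.34, 0.464 and 0.614 CPM in knockdown libraries, against 1.24, 0.788 and 1.13 CPM in control libraries. Every knockdown library lay below every control, but the value rests on 36 reads in knockdown libraries and 86 reads in control libraries, a ratio of depth-scaled reads of 0.408 (95% exact conditional interval 0.268 to 0.609, for counting error only). Its log2 fold change was -1.16 (SE 0.397, edgeR adjusted p = 0.0272).

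Vars2, the valine enzyme, had 5.22, 4.02 and 4.5 CPM in knockdown libraries, against 7.86, 7.19 and 7.9 CPM in control libraries. Rars2, the arginine enzyme, had 5.83, 5.33 and 4.71 CPM in knockdown libraries, against 8.98, 8.74 and 6.61 CPM in control libraries. Neither gene's groups overlapped, with log2 fold changes of -0.74 for Vars2 (SE 0.168, edgeR adjusted p = 0.00198) and -0.62 for Rars2 (SE 0.161, edgeR adjusted p = 0.00549). Nars2, Ears2, Aars2, Iars2 and Hars2 fell with log2 fold changes of -0.51 (Nars2) to -0.28 (Hars2), and of these Aars2, Ears2 and Hars2 were not called with an offset for gene length and GC content (edgeR adjusted p 0.0826 to 0.196). Of the 8 mitochondrial genes that were not called, Lars2, Tars2, Yars2, Sars2 and Fars2 had log2 fold changes of 0.11 to 0.19 and Cars2, Wars2 and Mars2 of -0.57 to -0.05.

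Kars, the lysine enzyme of cytosol and mitochondria, had 489.5, 492.2 and 502.9 CPM in knockdown libraries, against 373.9, 373.2 and 388.6 CPM in control libraries. This gap was wide against the spread within either group, with a log2 fold change of 0.39 (SE 0.0634, edgeR adjusted p = 0.000126). Gars, which also serves both compartments, had 851.4, 785.2 and 824.1 CPM in knockdown libraries, against 691.1, 616.3 and 638.5 CPM in control libraries. Its groups did not overlap, and Gars rose by a log2 fold change of 0.34 (SE 0.0659, edgeR adjusted p = 0.000565).

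Eprs, the bifunctional glutamate and proline enzyme of the multisynthetase complex, had 724.2, 714.3 and 720.8 CPM in knockdown libraries, against 565.6, 580.0 and 587.4 CPM in control libraries. Sars, the serine enzyme, had 739.2, 702.9 and 727.8 CPM in knockdown libraries, against 607.3, 551.5 and 584.4 CPM in control libraries. Both genes rose with a log2 fold change of 0.32 (Eprs SE 0.0619, edgeR adjusted p = 0.000581; Sars SE 0.0667, edgeR adjusted p = 0.00111) and without overlap of the groups. Eprs lost its call on the FPKM scale (log2 fold change 0.17, limma adjusted p = 0.0556). The other 5 that rose had log2 fold changes of 0.15 (Farsb) to 0.26 (Nars and Qars), and of these Farsb, Rars and Vars were not called on the FPKM scale (limma adjusted p = 0.927, 0.196 and 0.645). Of the 11 cytosolic genes not called, Lars was the lowest at -0.10 and Hars the highest at 0.15.

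Set beside genes of the same class of level, the share of cytosolic genes that rose was close to the background. The share of mitochondrial genes that fell was above it. The tested genes were ordered by mean FPKM and cut into low, middle and high classes of 4358 genes each. All 20 cytosolic genes, with Lars2 and Yars2, lay in the high class (11.2 FPKM and above), where 44% of genes were called higher and 5.42% lower in knockdown libraries; 45% of the cytosolic genes were called higher. The low class, under 2.24 FPKM, held 9 mitochondrial genes, of which 0 rose and 6 fell, and there 3.01% of genes were called higher and 23.9% lower, with a median log2 fold change of -0.30. The middle class held 6 mitochondrial genes, of which 0 rose and 3 fell, with 12.6% of its genes called higher and 18.7% lower. Over all levels 52.9% of the mitochondrial genes fell, and the difference from the background was not tested. The low class reaches down to 0.0079 FPKM, while its synthetase genes averaged 0.168 (Pars2) to 2.16 FPKM (Fars2). Sparser genes are less readily called, so the shares called are not matched for level within that class. The median log2 fold change of the 17 mitochondrial genes was -0.33, beside the -0.30 of the low class. Across genes, which are not independent, Spearman's rho between fold change and mean level was 0.79 over the 37 synthetase genes and 0.49 over all genes tested.

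The libraries also differed in how level depended on gene length: the slope of log2 CPM, relative to each gene's mean, per 10-fold of length was -0.304 to -0.219 in V465F libraries, -0.820 to -0.309 in V560F, -0.068 to 0.220 in wild-type OPA1, 0.202 to 0.219 in knockdown and 0.324 to 0.505 in control libraries. With an offset for length and GC content, 3 mitochondrial genes rose (Lars2, Tars2 and Fars2) and 6 fell, and 13 cytosolic genes rose and 0 fell. On the FPKM scale, which has no TMM factor and where the median of all genes was -0.09, 0 mitochondrial genes rose and 10 fell and 5 cytosolic genes rose and 3 fell. Relative to that median, the mitochondrial median was -0.23 and the cytosolic median 0.07 on log2(FPKM + 1), and with a pseudocount of 0.1 they were -0.34 and 0.11.

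Leaving out a library ended some calls. Without any 1 of the 6 libraries Farsb was not called (edgeR adjusted p 0.0513 to 0.13), Vars was not called without control replicate 2 or 3 or knockdown replicate 1 or 3 (0.0637 to 0.145), and Rars not without control replicate 2 or knockdown replicate 1 (0.0529 to 0.0585). Of the mitochondrial genes, Aars2 was not called without control replicate 1 or 2 or knockdown replicate 2 or 3 (0.0996 to 0.163), Ears2 not without control replicate 2 or knockdown replicate 1 or 3 (0.068 to 0.0996), Hars2 not without control replicate 1 or 2 or knockdown replicate 1 or 2 (0.0545 to 0.197), and Pars2 not without control replicate 1 or 3 or knockdown replicate 1 or 2 (0.0664 to 0.105). Vars2, Rars2, Nars2, Iars2, Kars, Gars, Eprs, Sars, Qars and Nars were called without each of the 6 libraries.

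**Figure D2:**
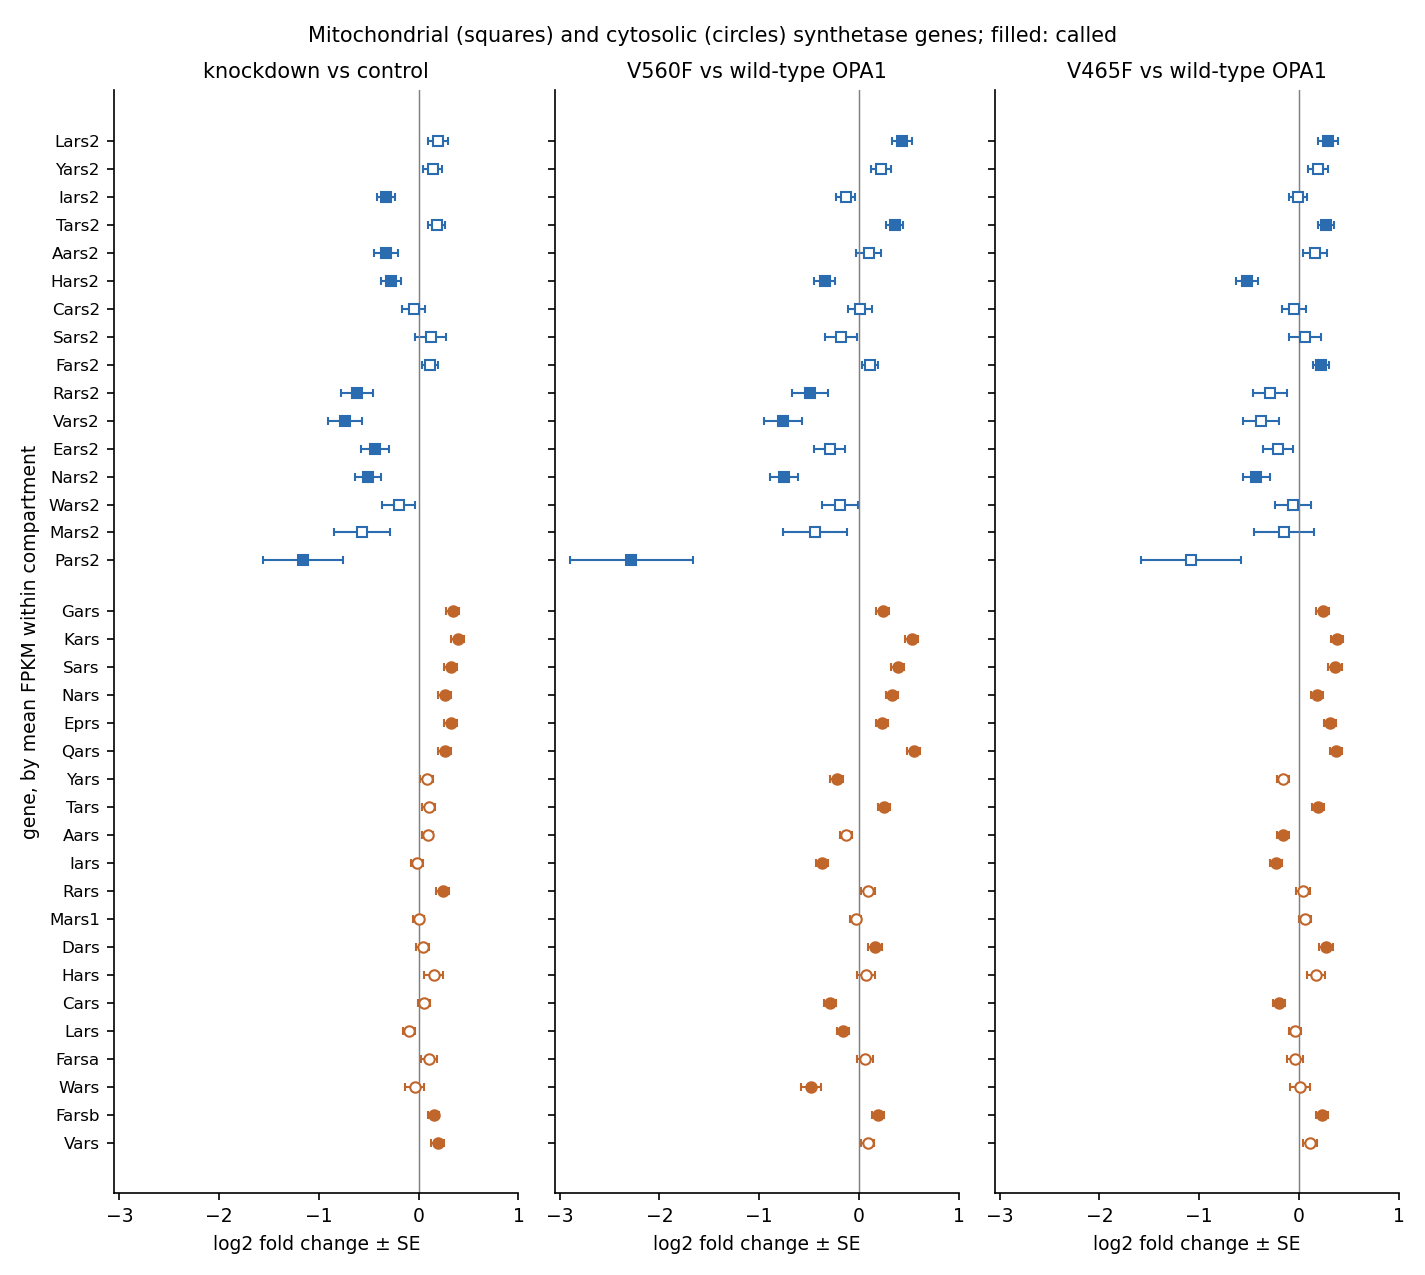
Log2 fold change ± SE of 36 of the 37 synthetase genes in 3 comparisons, mitochondrial genes (squares) above cytosolic genes (circles), ordered by mean FPKM; filled symbols are called at an edgeR adjusted p under 0.05. In knockdown against control 0 mitochondrial genes rose and 9 fell and 9 cytosolic genes rose and 0 fell, while on the FPKM scale the counts were 0 and 10 and 5 and 3.

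Wild-type OPA1 against knockdown asks what return of OPA1 does. No synthetase gene was called in either set, with median log2 fold changes of 0.01 over the mitochondrial and 0.02 over the cytosolic genes. Percent called over all genes was 0: edgeR called 0 of 13074 genes with 1157 at an unadjusted p under 0.05, DESeq2 and limma called 0, and edgeR called 40 with no filter on low counts and 3 with the 6 libraries alone. Of the 37 synthetase genes, 1 had an unadjusted p under 0.05: Fars2, the phenylalanine enzyme, had 29.1, 25.8 and 28.1 CPM in wild-type OPA1 libraries, against 22.9, 26.2 and 23.8 CPM in knockdown libraries. These groups overlapped, and the log2 fold change was 0.18 (SE 0.081, edgeR adjusted p = 0.542). The SE of the synthetase genes' log2 fold changes was 0.0558 to 0.43 with a median of 0.081. Changes well above a few percent could therefore go uncalled, even in abundant genes, and larger ones in the sparse genes. In V465F against V560F, for example, Wars was not called at a log2 fold change of 0.49. A gene not called here is not shown to be unchanged.

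V560F against wild-type OPA1 asks how a mutant OPA1 differs from the normal protein in the same knockdown background. This comparison moved synthetase genes in both directions. Of the mitochondrial genes 2 rose (Lars2 and Tars2) and 5 fell (Pars2, Vars2, Nars2, Rars2 and Hars2), with a median log2 fold change of -0.19. Of the cytosolic genes 9 rose (Qars, Kars, Sars, Nars, Tars, Gars, Eprs, Farsb and Dars) and 5 fell (Wars, Iars, Cars, Yars and Lars), with a median of 0.09, which turned to -0.16 on the FPKM scale. Over all genes, 49.4% were called, 24.5% higher and 24.9% lower, and the median was -0.02.

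Lars2 had 387.3, 547.0 and 428.8 CPM in V560F libraries, against 318.4, 299.5 and 393.4 CPM in wild-type OPA1 libraries. Its groups overlapped, since the highest wild-type OPA1 library exceeded the lowest V560F library, and the log2 fold change was 0.43 (SE 0.1, edgeR adjusted p = 0.00116). Tars2, the threonine enzyme, had 28.1, 35 and 32 CPM in V560F libraries, against 25.3, 22.9 and 25.7 CPM in wild-type OPA1 libraries. Here the groups did not overlap (log2 fold change 0.36, SE 0.0834, edgeR adjusted p = 0.00102). Neither rise was called on the FPKM scale, at log2 fold changes of 0.16 for Lars2 (limma adjusted p = 0.122) and 0.08 for Tars2 (limma adjusted p = 0.282).

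Nars2, the asparagine enzyme, had 9.19, 7.98 and 6.98 CPM in V560F libraries, against 14, 14.1 and 12.6 CPM in wild-type OPA1 libraries. Vars2 had 3.03, 2.64 and 3.18 CPM in V560F libraries, against 4.62, 6.36 and 3.95 CPM in wild-type OPA1 libraries. Neither gene's groups overlapped, with log2 fold changes of -0.75 for Nars2 (SE 0.141, edgeR adjusted p = 0.00014) and -0.76 for Vars2 (SE 0.189, edgeR adjusted p = 0.00204). Rars2 had 3.19, 4.02 and 4.54 CPM in V560F libraries, against 5.15, 5.55 and 5.74 CPM in wild-type OPA1 libraries. It fell by 0.49 on the log2 scale (SE 0.178, edgeR adjusted p = 0.0274), and was not called without V560F replicate 1 (0.13) or wild-type OPA1 replicate 2 or 3 (0.0628 to 0.0701).

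Hars2, the histidine enzyme, had 12.5, 11.7 and 12.9 CPM in V560F libraries, against 15.5, 15.9 and 15.6 CPM in wild-type OPA1 libraries. The groups did not overlap (log2 fold change -0.34, SE 0.106, edgeR adjusted p = 0.0104). Pars2 had 0.165, 0 and 0.17 CPM in V560F libraries, against 0.527, 0.572 and 0.522 CPM in wild-type OPA1 libraries. That is 3, 0 and 3 reads in V560F libraries and 13, 17 and 14 reads in wild-type OPA1 libraries, a ratio of depth-scaled reads of 0.171 (95% exact conditional interval 0.0595 to 0.403, for counting error only). The fitted log2 fold change of -2.28 (SE 0.613, edgeR adjusted p = 0.00378) rests on these few reads. Unlike that ratio it is scaled by TMM, and it uses no prior count.

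Qars, the glutamine enzyme of the multisynthetase complex, had 272.2, 296.6 and 283.0 CPM in V560F libraries, against 187.8, 183.4 and 210.8 CPM in wild-type OPA1 libraries. No other synthetase gene had a lower adjusted p in this comparison (log2 fold change 0.55, SE 0.0638, edgeR adjusted p = 9.45e-07). Kars had 701.4, 786.4 and 696.0 CPM in V560F libraries, against 506.0, 471.6 and 534.4 CPM in wild-type OPA1 libraries. Its groups were also far apart (log2 fold change 0.53, SE 0.0634, edgeR adjusted p = 1.27e-06). Both were called in the same direction under every alternative run.

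Sars had 939.7, 1030.1 and 906.8 CPM in V560F libraries, against 757.2, 670.5 and 770.5 CPM in wild-type OPA1 libraries. Nars had 462.1, 521.1 and 485.5 CPM in V560F libraries, against 390.8, 369.9 and 404.3 CPM in wild-type OPA1 libraries. All V560F libraries lay above all wild-type OPA1 libraries for both genes, with log2 fold changes of 0.39 for Sars (SE 0.0667, edgeR adjusted p = 5.64e-05) and 0.33 for Nars (SE 0.0626, edgeR adjusted p = 0.000143), of which Nars was not called on the FPKM scale (0.07, limma adjusted p = 0.112). The other 5 that rose had log2 fold changes of 0.16 to 0.25, and each of the 5 had a value below 0 on the FPKM scale (-0.09 to -0.02). Dars was not called without V560F replicate 1 or 2 or wild-type OPA1 replicate 1 or 2 (edgeR adjusted p 0.0847 to 0.186).

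Wars, the tryptophan enzyme, had 48, 38.5 and 40.8 CPM in V560F libraries, against 68.3, 55.4 and 53.5 CPM in wild-type OPA1 libraries. The groups did not overlap, and Wars fell by 0.48 on the log2 scale (SE 0.0991, edgeR adjusted p = 0.000422). Iars, the isoleucine enzyme of the multisynthetase complex, had 215.1, 200.7 and 210.2 CPM in V560F libraries, against 291.0, 259.6 and 258.5 CPM in wild-type OPA1 libraries. It was again without overlap (log2 fold change -0.37, SE 0.059, edgeR adjusted p = 2.52e-05). Wars and Iars fell under every alternative run.

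Cars, the cysteine enzyme, had 90, 93.5 and 96.1 CPM in V560F libraries, against 115.1, 110.1 and 116.7 CPM in wild-type OPA1 libraries. Yars, the tyrosine enzyme, had 180.2, 204.1 and 177.6 CPM in V560F libraries, against 225.1, 207.5 and 220.3 CPM in wild-type OPA1 libraries. Neither overlapped, with log2 fold changes of -0.29 for Cars (SE 0.0605, edgeR adjusted p = 0.000419) and -0.22 for Yars (SE 0.0645, edgeR adjusted p = 0.00799). With the length and GC offset the call on Cars was lost (-0.09, edgeR adjusted p = 0.188), and with the 6 libraries alone that on Yars (-0.22, edgeR adjusted p = 0.0557). Lars had the smallest fall, at a log2 fold change of -0.16 (SE 0.0609, edgeR adjusted p = 0.0337), and was not called without V560F replicate 2 or 3 or wild-type OPA1 replicate 1 or 3 (0.0635 to 0.118).

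In the high class by level 53.2% of genes were called higher and 13.7% lower in V560F libraries, beside 45% and 25% of the cytosolic synthetase genes. In the low class 5% were called higher and 24.3% lower, and of its 9 mitochondrial synthetase genes 0 rose and 4 fell. In the middle class 15.3% were called higher and 36.8% lower, and of its 6 mitochondrial synthetase genes 1 rose and 1 fell. With the length and GC offset 4 mitochondrial genes rose and 5 fell and 11 cytosolic genes rose and 3 fell. On the FPKM scale, where the median of all genes was -0.16, 0 mitochondrial genes rose and 8 fell and 3 cytosolic genes rose and 10 fell; relative to that median the mitochondrial median was -0.04 and the cytosolic median -0.00 on log2(FPKM + 1), and with a pseudocount of 0.1 they were -0.18 and 0.09.

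**Figure D3:**
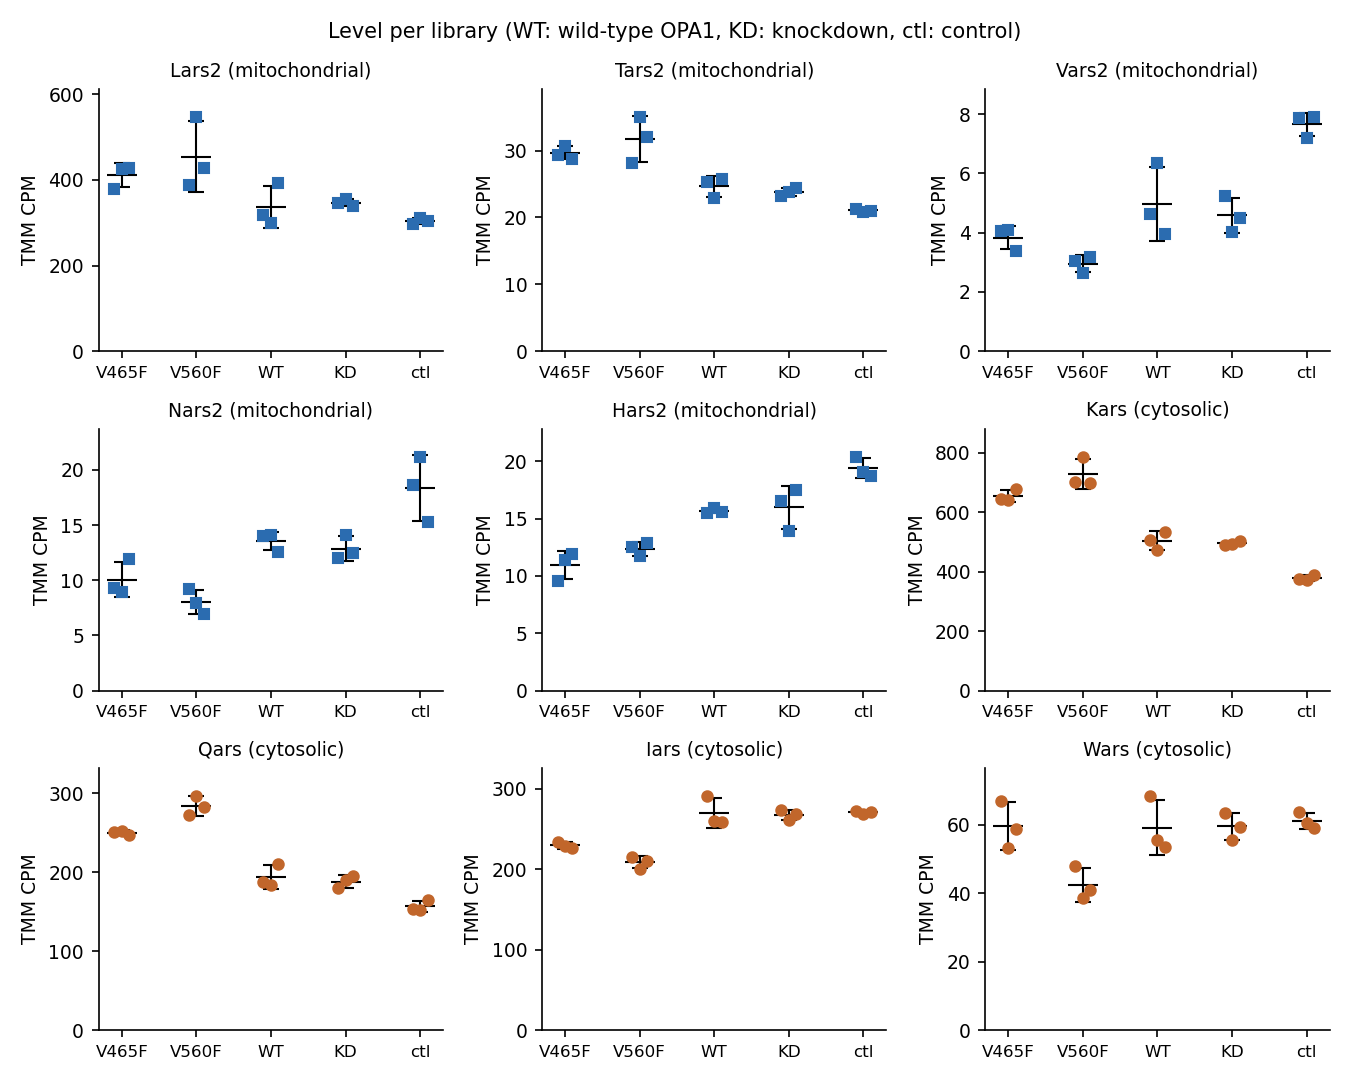
TMM-scaled CPM per library (points, n = 3 per group, bars mean ± SD) of 5 mitochondrial (squares) and 4 cytosolic (circles) synthetase genes in the 5 groups. Kars and Qars are highest in V560F libraries, at 696.0 to 786.4 and 272.2 to 296.6 CPM, Iars is lowest there, at 200.7 to 215.1 CPM, and Wars lies at 38.5 to 48 CPM in V560F libraries, below the 53.1 to 66.9 CPM of V465F libraries.

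V465F against wild-type OPA1 asks the same of the second mutant. Of the mitochondrial genes 3 rose (Lars2, Tars2 and Fars2) and 2 fell (Hars2 and Nars2), with a median log2 fold change of -0.06. Of the cytosolic genes 9 rose (Kars, Qars, Sars, Eprs, Dars, Gars, Farsb, Tars and Nars) and 3 fell (Iars, Cars and Aars), with a median of 0.14, which turned to -0.03 on the FPKM scale. Over all genes, 38.2% were called, 18.1% higher and 20% lower, with a median of -0.02. The 9 that rose were the same 9 cytosolic genes as in V560F libraries, but both comparisons use the same wild-type OPA1 libraries.

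Hars2 had 9.55, 11.4 and 11.9 CPM in V465F libraries, against 15.5, 15.9 and 15.6 CPM in wild-type OPA1 libraries. It was called under every alternative run (log2 fold change -0.52, SE 0.107, edgeR adjusted p = 0.000706). Nars2 had 9.29, 8.97 and 11.9 CPM in V465F libraries, against 14, 14.1 and 12.6 CPM in wild-type OPA1 libraries. These groups did not overlap (log2 fold change -0.43, SE 0.136, edgeR adjusted p = 0.0156), and the call was lost without V465F replicate 1 or 2 or wild-type OPA1 replicate 2 (0.0569 to 0.0788) and with the length and GC offset (0.116). Vars2 and Pars2 were not called, at log2 fold changes of -0.38 (SE 0.181, edgeR adjusted p = 0.1) and -1.08 (SE 0.503, edgeR adjusted p = 0.0963).

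Lars2 had 379.6, 426.2 and 428.5 CPM in V465F libraries, against 318.4, 299.5 and 393.4 CPM in wild-type OPA1 libraries. The groups overlapped (log2 fold change 0.29, SE 0.1, edgeR adjusted p = 0.0273), and the call was lost without V465F replicate 2 or 3 or wild-type OPA1 replicate 1 or 2 (0.0887 to 0.155). Tars2 had 29.4, 30.7 and 28.8 CPM in V465F libraries, against 25.3, 22.9 and 25.7 CPM in wild-type OPA1 libraries. It did not overlap (log2 fold change 0.27, SE 0.0833, edgeR adjusted p = 0.0149) and lost its call without V465F replicate 2 or wild-type OPA1 replicate 2 (0.0579 to 0.0875). Fars2 had 31.9, 32 and 32.6 CPM in V465F libraries, against 29.1, 25.8 and 28.1 CPM in wild-type OPA1 libraries. Its groups were close but apart (log2 fold change 0.22, SE 0.0809, edgeR adjusted p = 0.0364), and the call was lost without any 1 of the 3 V465F libraries or wild-type OPA1 replicate 2 (0.0656 to 0.167). None of the 3 rises was called on the FPKM scale (limma adjusted p 0.261 to 0.691). The number of mitochondrial genes called, 5 with all libraries, was 1 without wild-type OPA1 replicate 2, 1 without V465F replicate 2 and 3 without V465F replicate 3.

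Kars had 644.0, 640.3 and 676.8 CPM in V465F libraries, against 506.0, 471.6 and 534.4 CPM in wild-type OPA1 libraries. Qars had 250.5, 252.8 and 246.9 CPM in V465F libraries, against 187.8, 183.4 and 210.8 CPM in wild-type OPA1 libraries. Both rose by similar steps without overlap, with log2 fold changes of 0.38 for Kars (SE 0.0633, edgeR adjusted p = 0.000122) and 0.37 for Qars (SE 0.0637, edgeR adjusted p = 0.000164). Sars had 939.2, 918.9 and 957.0 CPM in V465F libraries, against 757.2, 670.5 and 770.5 CPM in wild-type OPA1 libraries. Eprs had 831.3, 814.5 and 843.2 CPM in V465F libraries, against 704.6, 647.3 and 661.2 CPM in wild-type OPA1 libraries. These 2 genes also rose without overlap, by log2 fold changes of 0.36 for Sars (SE 0.0667, edgeR adjusted p = 0.000304) and 0.31 for Eprs (SE 0.0619, edgeR adjusted p = 0.000611), and Eprs was not called on the FPKM scale (0.14, limma adjusted p = 0.108).

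The other 5 that rose had log2 fold changes of 0.18 to 0.27, and none of the 5 was called on the FPKM scale (limma adjusted p 0.186 to 0.882). Nars was not called without V465F replicate 2 or 3 or wild-type OPA1 replicate 1 or 2 (edgeR adjusted p 0.0626 to 0.128), nor Tars without V465F replicate 2 or 3 or wild-type OPA1 replicate 2 (0.0603 to 0.108). Iars had 234.1, 228.6 and 226.5 CPM in V465F libraries, against 291.0, 259.6 and 258.5 CPM in wild-type OPA1 libraries. Cars had 102.2, 101.1 and 94.7 CPM in V465F libraries, against 115.1, 110.1 and 116.7 CPM in wild-type OPA1 libraries. Neither overlapped, with log2 fold changes of -0.23 for Iars (SE 0.0588, edgeR adjusted p = 0.00375) and -0.20 for Cars (SE 0.0602, edgeR adjusted p = 0.0123), and Cars was not called without V465F replicate 3 (0.0744).

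Aars, the alanine enzyme, had 430.1, 423.1 and 418.6 CPM in V465F libraries, against 476.9, 460.5 and 485.5 CPM in wild-type OPA1 libraries. The groups did not overlap (log2 fold change -0.16, SE 0.0575, edgeR adjusted p = 0.0301), but the call was lost without any 1 of the 3 V465F libraries or wild-type OPA1 replicate 1 or 3 (0.0517 to 0.0938). With the length and GC offset the 3 falls were no longer called, at -0.09 for Iars, -0.05 for Cars and 0.05 for Aars. In the high class by level, 41.2% of genes were called higher and 11.7% lower in V465F libraries, beside 45% and 15% of the cytosolic synthetase genes. In the low class 3.17% were called higher and 18% lower, and of its 9 mitochondrial synthetase genes 1 rose and 1 fell. In the middle class 9.96% were called higher and 30.5% lower, and of its 6 mitochondrial synthetase genes 1 rose and 1 fell. With the length and GC offset 4 mitochondrial genes rose and 1 fell and 11 cytosolic genes rose and 1 fell. On the FPKM scale, where the median of all genes was -0.11, 0 mitochondrial genes rose and 5 fell and 3 cytosolic genes rose and 6 fell; relative to that median the mitochondrial median was -0.02 and the cytosolic median 0.08 on log2(FPKM + 1), and with a pseudocount of 0.1 they were -0.04 and 0.14.

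**Figure D4:**
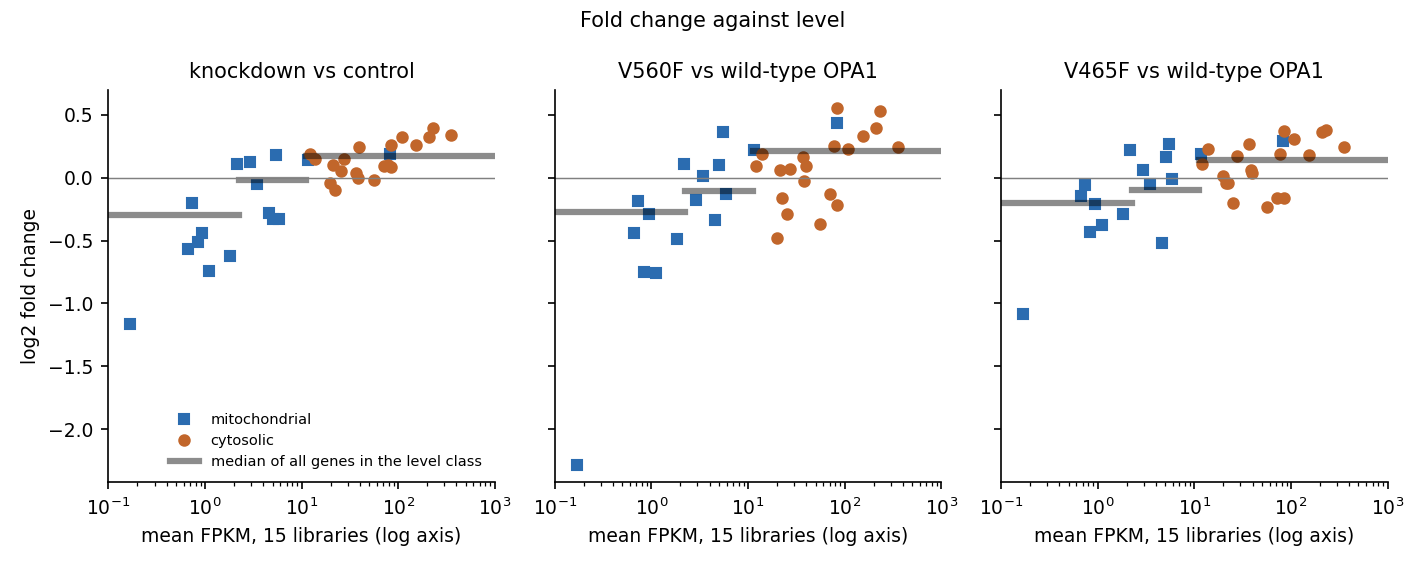
Log2 fold change of 36 of the 37 synthetase genes against its mean FPKM over the 15 libraries (log axis), mitochondrial as squares and cytosolic as circles; grey bars give the median of all tested genes in the low, middle and high classes of level. In knockdown against control the bars stand at -0.30, -0.02 and 0.17 from low to high.

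V465F against V560F compares the mutants directly. No synthetase gene was called, with median log2 fold changes of 0.12 over the mitochondrial and 0.03 over the cytosolic genes, and edgeR called 1 of all 13074 genes (0.00765%), with 2373 at an unadjusted p under 0.05. The number of genes called was unstable, with 834 without V560F replicate 1, 580 with no filter on low counts, 160 by DESeq2 and 53 with the length and GC offset, and 0 or 1 without each of the other 5 libraries. Of the 37 genes, 6 had an unadjusted p under 0.05 (Wars, Qars, Nars, Kars, Iars and Nars2), with edgeR adjusted p of 0.0909 to 0.251. Wars had 66.9, 53.1 and 58.7 CPM in V465F libraries, against 48, 38.5 and 40.8 CPM in V560F libraries. The groups did not overlap, and the log2 fold change of 0.49 (SE 0.1, edgeR adjusted p = 0.0909) lay near the call threshold. It was called with no filter on low counts (edgeR adjusted p = 1.98e-05), by DESeq2 (0.006), with the length and GC offset (0.0254) and without V560F replicate 1 (0.0162). It was not called in the other 9 settings without a replicate block, at adjusted p of 0.0979 to 0.444.

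Set against knockdown, each mutant gave calls in both sets. In V560F against knockdown 3 mitochondrial genes rose and 9 fell (median -0.37) and 7 cytosolic genes rose and 4 fell (median 0.12, but -0.15 on the FPKM scale), with 53.8% of all genes called (26.3% higher and 27.6% lower). In V465F against knockdown 2 mitochondrial genes rose and 4 fell (median -0.19) and 11 cytosolic genes rose and 3 fell (median 0.18, but -0.00 on the FPKM scale), with 46% of all genes called (21.9% higher and 24.1% lower). All 4 mutant comparisons share libraries, so their values are given side by side only. Qars had log2 fold changes of 0.59 in V560F (SE 0.0639, edgeR adjusted p = 2.35e-07) and 0.41 in V465F (SE 0.0638, edgeR adjusted p = 2.87e-05), and Kars of 0.56 in V560F (SE 0.0635, edgeR adjusted p = 4.05e-07) and 0.40 in V465F (SE 0.0634, edgeR adjusted p = 3.33e-05).

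Farsb had 106.1, 103.1 and 96.4 CPM in V465F libraries and 98.3, 100.6 and 97.2 CPM in V560F, against 81.6, 82.1 and 84.4 CPM in knockdown libraries. Each mutant group lay wholly above knockdown, with log2 fold changes of 0.30 in V465F (SE 0.0575, edgeR adjusted p = 0.000227) and 0.26 in V560F (SE 0.0577, edgeR adjusted p = 0.000749), but on the FPKM scale with values of 0.11 in V465F and -0.02 in V560F and no call (limma adjusted p = 0.102 and 0.773). Ears2, the glutamate enzyme, had 6.11, 4.89 and 5.47 CPM in V465F libraries and 4.62, 6.55 and 4.42 CPM in V560F, against 7.04, 8.31 and 6.92 CPM in knockdown libraries. It fell in both, by 0.43 on the log2 scale in V465F (SE 0.152, edgeR adjusted p = 0.0235) and 0.51 in V560F (SE 0.155, edgeR adjusted p = 0.00772). In V465F its call was lost without V465F replicate 2 or 3 or knockdown replicate 2 (0.0606 to 0.113), and with the length and GC offset it was lost in both (0.328 in V465F and 0.399 in V560F).

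Lars had 84.9, 89 and 79.8 CPM in V465F libraries and 79.5, 76.4 and 77.1 CPM in V560F, against 91.4, 86.3 and 88.3 CPM in knockdown libraries. It fell in V560F (log2 fold change -0.19, SE 0.0609, edgeR adjusted p = 0.0115), a call lost without knockdown replicate 1 (0.051) and with the length and GC offset (0.559).

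Pairing the genes of the same amino acid gave 18 mitochondrial and cytosolic pairs, in which Fars2 counts against Farsa and Farsb and Eprs against Ears2 and Pars2. In knockdown against control the mitochondrial log2 fold change was below the cytosolic one in 14 of 18 pairs. All cytosolic partners lay in the high class by level, but 9 mitochondrial genes in the low and 6 in the middle class. The medians of all genes in these classes were 0.17, -0.30 and -0.02 in that order, so level enters the count. Whether the pairs differ beyond level was not tested. Among the wide gaps were Pars2 against Eprs (-1.16 and 0.32) and Vars2 against Vars (-0.74 and 0.19). The 4 pairs in the other order were leucine, threonine and tyrosine and that of Fars2 with Farsa. In V560F against wild-type OPA1 the mitochondrial value was lower in 10 of 18 pairs, and in V465F against wild-type OPA1 in 11 of 18. In both mutants, Lars2, Aars2, Cars2, Iars2, Tars2 and Yars2 had values above their cytosolic partners, as did Fars2 against Farsa.

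**Figure D5:**
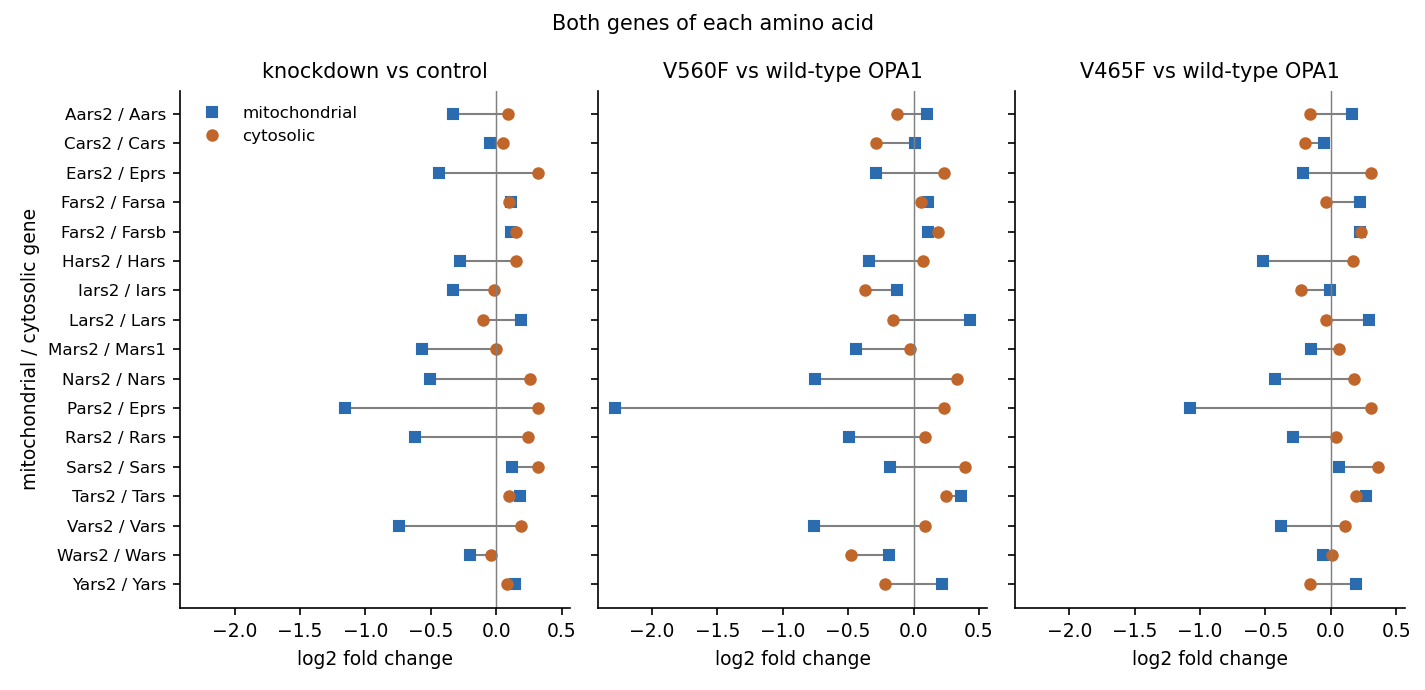
Log2 fold change of the mitochondrial (squares) and cytosolic (circles) gene of 17 of the 18 pairs in 3 comparisons. Over all 18 pairs, in knockdown against control the mitochondrial value is lower in 14 pairs, in V560F against wild-type OPA1 in 10 and in V465F against wild-type OPA1 in 11. The genes of a pair were not matched by level.

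Synthetases divide into catalytic classes I and II, which have unrelated folds, and the cytosolic genes were counted by class. In V560F against wild-type OPA1, 7 of 10 class II genes rose and 0 fell (median log2 fold change 0.21), while 1 of 9 class I genes rose (Qars) and 5 fell (median -0.16), beside 53.2% higher and 13.7% lower among all genes of the high class of level. With the length and GC offset the counts for class II were 7 and 0 (median 0.21) and those for class I were 3 and 3 (median -0.03). On log2(FPKM + 1), Dars, Farsb, Gars, Nars and Tars of class II lost their calls in both mutant comparisons with wild-type OPA1. Their limma adjusted p was 0.112 to 0.882, and in V560F all but Nars had values below 0 (-0.09 to -0.02). Counts by class were not made on that scale. In V465F against wild-type OPA1, 7 class II genes rose and 1 fell (median 0.21), and 1 class I gene rose and 2 fell (median 0.01). In knockdown against control, 5 class II genes rose and 0 fell, and 3 class I genes rose and 0 fell, or 6 and 0 in each class with the offset. Eprs, with a domain of each class, was left out of these counts, and the difference between classes was not tested. Class overlaps with level, since Gars, Kars, Sars and Nars, the most abundant cytosolic genes, are all class II, though so is Farsb at 13.9 FPKM. In V560F against wild-type OPA1, Spearman's rho between fold change and mean level was 0.60 over the 20 cytosolic genes. Class and level were not told apart. The 5 genes with the C/EBP-ATF letters did not move together: in V560F against wild-type OPA1 Gars and Tars rose, Iars and Yars fell, and Aars was not called.

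Of the cytosolic genes, 8 belong to the multisynthetase complex, whose scaffold is built by Aimp1, Aimp2 and Eef1e1. Of those 8 genes, 4 rose and 2 fell in V560F and 4 rose and 1 fell in V465F, each against wild-type OPA1, and 4 rose and 0 fell in knockdown against control. The 3 scaffold genes rose in all 3 of these comparisons and kept values above 0 under every alternative (lowest 0.04), though some of these calls were lost, Aimp1 included in knockdown against control (highest adjusted p 0.0809). With the length and GC offset their median went from 0.58 to 0.21 in V560F, with 2 called. In V465F it went from 0.31 to 0.15 with 1 called, and in knockdown against control from 0.28 to 0.19 with 2 called. Of all tested genes 24.5%, 18.1% and 19.9% were called higher without the offset, in that order. Aimp1 averaged 292.0 CPM in V560F libraries and 189.7 CPM in wild-type OPA1 libraries (log2 fold change 0.62, SE 0.0906, edgeR adjusted p = 9.35e-06). In knockdown against control it averaged 173.8 CPM and 139.6 CPM (log2 fold change 0.32, SE 0.0909, edgeR adjusted p = 0.0101).

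The list of cytosolic elongation factors holds eEF1A, which takes charged tRNAs to the ribosome, subunits of its exchange factor, the translocase eEF2 and Eif5a. Its genes rose as a whole list: 7 of 7 in knockdown against control, in V560F and in V465F, each mutant against wild-type OPA1, with values above 0 under every alternative. In the same order, 19.9%, 24.5% and 18.1% of all tested genes were called higher. In the high class of level the shares were 44%, 53.2% and 41.2%. Whether the list differs from genes of its level was not tested. Eef1a1 averaged 24922.8 CPM in V560F libraries and 16050.2 CPM in wild-type OPA1 libraries (log2 fold change 0.63, edgeR adjusted p = 1.34e-06). Of 10 mitochondrial translation factors, 2 rose (Tufm and Gfm1) and 2 fell (Mtif2 and Gfm2) in knockdown against control, 4 rose and 2 fell in V560F, and 3 rose and 1 fell in V465F. Of 12 genes for mitochondrial tRNA maturation the counts were 1 and 2, 4 and 2, and 3 and 2. Hsd17b10, a subunit of mitochondrial RNase P, rose in all 3 (log2 fold changes 0.39, 0.61 and 0.40), while Trmt5, a tRNA methyltransferase, fell in all 3 (-0.68, -0.45 and -0.41), and its calls in V560F and V465F were lost under some alternatives (highest adjusted p 0.0888 and 0.118).

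Of 12 synthetase-like, editing and accessory genes, 1 rose and 2 fell in knockdown against control, 4 rose and 2 fell in V560F, and 2 rose and 2 fell in V465F. Tarsl2, a threonine enzyme that the symbol pattern missed, rose in each (log2 fold changes 0.34, 0.24 and 0.30, of which the V560F value went down to -0.02 among the alternatives), and Xpot, the tRNA exporter, fell in V560F and V465F (-0.33 and -0.27), calls that some alternatives lost (highest adjusted p 0.18 and 0.19). Of 16 tested genes of the list of ATF4 and its targets outside the synthetases, 11 rose and 2 fell in knockdown against control, 12 rose and 1 fell in V560F, and 10 rose and 0 fell in V465F. Ddit3 averaged 390.8 CPM in V560F libraries and 228.4 CPM in wild-type OPA1 libraries (log2 fold change 0.78, SE 0.0958, edgeR adjusted p = 1.77e-06). Slc7a11, the cystine transporter and a known ATF4 target, fell in V560F against wild-type OPA1 (-0.93) and in knockdown against control (-0.63). Chac1 of the same list also fell in knockdown against control, but rose in V560F and in V465F, each against wild-type OPA1. These lists were chosen with earlier results of these data known, and stand beside the all-gene shares given above.

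Exons of 14 of the 37 genes overlap exons of another gene in GENCODE M21, among them Mars1 with Ddit3, Hars with Hars2, Farsb with Sgpp2, Aars with Exosc6, Fars2 with Lyrm4 and Nrn1, Vars2 with Gm20483 and Nars2 with C230038L03Rik. The strand setting of the counting is not given in the sources used here, so reads in such overlaps cannot be assigned to either gene. Among the 23 genes without overlap, 0 of 9 mitochondrial genes rose and 3 fell and 8 of 14 cytosolic genes rose and 0 fell in knockdown against control. In V560F against wild-type OPA1 these counts were 2 and 2 and 8 and 3, and in V465F against wild-type OPA1 2 and 0 and 8 and 1.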

How the data were processed

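Per the labels' protocols, TRIzol RNA of N2a cells went into sequencing libraries built with the VAHTS Universal V6 kit. The authors used fastp, HISAT2, HTSeq and R 3.2.0 with build GRCm39, per the submitters' processing notes; other versions, the annotation and the strand setting are not given in the sources used here. For 22507 genes in 15 libraries the authors deposited whole-number counts and, beside them, FPKM; FPKM was recomputed from counts, gene length and table total with a largest relative gap of 1.2e-06. Groups were taken from the labels.

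Counts were tested with edgeR 4.0.16 in R 4.3.3 (TMM, filterByExpr, quasi-likelihood fit of 1 mean per group to all 15 libraries, 10 residual degrees of freedom), for 7 comparisons. P-values were adjusted by Benjamini-Hochberg over the 13074 genes tested, with calls at 0.05. SE is the absolute log2 fold change divided by the root of the F statistic. The common coefficient of biological variation was 7.8%. Alternatives used DESeq2 1.42.0, limma 3.58.1 on log2(FPKM + 1) and log2(FPKM + 0.1), DESeq2 size factors, no filter, the 6 libraries compared alone, a replicate block, an offset for length and GC content (spline with 5 degrees of freedom) and each library left out. Scripts were tested on simulated counts. Synthetase genes were chosen by symbol, and the genes given with values in every library were up to 4 called genes with the largest rise and fall in each set and comparison; of the pathway lists, up to 3 called genes with the lowest adjusted p. The genes, lists, motifs and rules were chosen with earlier results of these data known. Promoter sequences are RefSeq's on GRCm38.p6, another build than the authors'. An exact test of 3 against 3 libraries cannot go below p = 0.1, so none was used. A synthetase gene and a marker gene enter the counts and medians but are not reported here by name.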

Additional observations from a re-analysis of the deposited data

How the results depend on the processing

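Of the 99 calls on synthetase genes over the 7 comparisons, 33 were kept under every alternative run and 24 were not kept, or changed sign, with the length and GC offset. The number of cytosolic genes called in V560F against wild-type OPA1, 14 in all, was 8 with the 6 libraries alone. In V465F against V560F it was 0, and 1 (Wars) with no filter, with DESeq2, with the length and GC offset and with the replicate block (edgeR adjusted p = 0.00702). The mitochondrial count in V560F against knockdown, 12 in all, was 7 with the offset, and the cytosolic count in V465F against knockdown, 14 in all, was 9 on either FPKM scale. On log2(FPKM + 1) and log2(FPKM + 0.1), V560F against wild-type OPA1 reversed for Dars (-0.09 and -0.10), Eprs (-0.04), Farsb (-0.07), Gars (-0.02) and Tars (-0.02); V560F against knockdown reversed for Farsb (-0.02) and Gars (-0.01), and V465F against knockdown for Mars1 (-0.01). With the offset, V465F against wild-type OPA1 reversed for Aars (0.05), V560F against knockdown for Iars2 (0.05) and V465F against knockdown for Aars (0.06). The cause was not tested. Leaving out a library gave, as mitochondrial and cytosolic counts, 6 to 8 and 6 to 8 in knockdown against control, 6 to 8 and 12 to 14 in V560F against wild-type OPA1, 1 to 6 and 8 to 11 in V465F against wild-type OPA1, 0 to 0 and 0 to 1 in V465F against V560F, 9 to 11 and 11 to 13 in V560F against knockdown, and 4 to 8 and 10 to 11 in V465F against knockdown. Same-numbered libraries did not deviate together (mean correlation 0.0148 over 30 pairs, -0.179 to 0.0878). This cannot tell whether same-numbered samples were handled together, which the labels do not say. The replicate block changed no other count by more than 1.5 times. Pars2 failed the filter in the 6-library fits of the mutants against each other and against knockdown. Mitochondrial genes under 3 FPKM have the widest errors, up to an SE of 0.73 for Pars2.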
